A study of Homo sapiens with 44 samples.

Results

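The vehicle overlay series held 12 of the 44 arrays of a study of ZR-75-1 cells, a human breast cancer line of luminal type that carries estrogen and progesterone receptors. They are all arrays labelled as estrogen-pretreated cells given ethanol alone for 0, 4, 8 or 16 h, with 3 arrays at each time. The study followed progesterone in cells first treated with estradiol, and these arrays are the control arm of that time course. All 12 cultures had received 10 nM estradiol (E2) for 72 h, in phenol red-free medium with charcoal-stripped serum. The other arrays also enter the estimate of spread. They held primed cells overlaid with 10 nM progesterone or medroxyprogesterone acetate for 4, 8 or 16 h. Others were overlaid for 16 h with 10 nM E2, alone or with either of these, or held unprimed cells given vehicle for 16 h. The overlay added a small volume of medium with vehicle onto the medium already in the well, so that the estradiol was not washed out, and the plate was swirled gently. Overlays were started at staggered times and RNA was taken from all cultures together. The labels give the ethanol of the 0 h cultures as 1 part in 1000 and that of the 4, 8 and 16 h cultures as 1 part in 1000000, so the labelled dilution changes together with time. Swirling, the added volume, ethanol and the further hours in culture with estradiol cannot be told apart in these groups, and nothing in the labels says that the 3 replicates of a group came from independent cultures. The p-values thus speak only of the scatter within groups, estimated over all 44 arrays of the study, and part or all of it may be technical. The 4 h arrays correlated less with their own group (mean r of 0.957, 0.974 and 0.967) than the 0 h arrays (0.986, 0.987 and 0.986). The shared spread may thus understate the scatter at 4 h. By correlation over the whole array, the vehicle time groups did not separate. Pairs of vehicle arrays from the same group had r of 0.950 to 0.990, and pairs from different groups 0.954 to 0.991. For only 3 of the 12 vehicle arrays was the closest group average that of its own time.

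Several regulated systems are known to respond within hours to changes around cultured cells. Heat shock factors switch on chaperones of the HSP70 and HSP110 classes when proteins unfold, immediate early genes such as JUN and the EGR factors react within minutes to growth factors and stretch, and sterol-sensing proteins adjust cholesterol synthesis to the lipids at hand. KLF2 is a zinc finger transcription factor best known for its response to fluid flow over endothelial cells. In luminal breast cancer cells, estradiol bound to its receptor drives genes such as TFF1, GREB1, MYC and CCND1.

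Markers of luminal cells were read first. All 13 luminal epithelial markers in the table (of 17 on the list) lay above the background of their array on all 12 arrays, with a median log2 level of 10.6, and XBP1, a secretory transcription factor, was the highest of them. XBP1 was also the only 1 of the 13 called at 4 h (-0.43, adjusted p = 0.0253), a call lost without any 1 array of the 0 h group or replicate 1 or 2 of the 4 h group (up to 0.129 among alternatives). An unadjusted p under 0.05 was reached by 7, 4 and 3 of the 13 luminal markers after 4, 8 and 16 h, and the median change of the list was -0.29, -0.17 and -0.11. Of all 41374 transcript clusters tested, 4771, 4120 and 3836 reached an unadjusted p under 0.05 at these times. ESR1, the estrogen receptor, ran between 9.14 and 9.85, and PGR, the progesterone receptor, between 11.71 and 12.02. Markers of other cells read lower as lists but mostly lay above background too, in 3 of 4 measured basal markers (median 5.35), 2 of 4 fibroblast (4.93), 6 of 7 endothelial (5.29) and 3 of 4 immune markers (6.97). The highest of each were EGFR at 7.56, VIM at 6.76, CLDN5 at 6.88 and CD68 at 8.45, all above KRT7, the lowest luminal marker, at 6.30. KRT14 of basal cells, DCN and LUM of fibroblasts, EMCN of endothelium and CD14 of monocytes were not above background. By limma 0 of 2 fibroblast markers, 0 of 6 endothelial, 0 of 4 immune and 0 of 4 basal markers were called at 4, 8 or 16 h against 0 h. An unadjusted p under 0.05 was reached by 1 endothelial marker at 8 h and by 1 basal marker each at 8 h and 16 h. Levels are log2 values after robust multi-array averaging (RMA), so a difference of 1 is a 2-fold change. A transcript cluster is the array's unit for a gene or transcript, a gene was represented by its cluster with the highest mean level, and a call is an adjusted p of at most 0.05 by limma. Replicate 1 of the 4 h group and replicate 3 of the 16 h group had a narrower range than the rest, with interquartile ranges of 2.90 and 2.93 log2 units, against 3.02 to 3.14 on the other arrays. Counts are therefore also given without them.

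KLF2, TSKU and HSPA1A were the 3 genes that marked the overlay in earlier results of these data. On the individual arrays KLF2 stood at 10.09, 10.32 and 10.29 at 0 h, at 9.20, 9.28 and 9.08 at 4 h, at 9.11, 9.25 and 8.94 at 8 h, and at 9.06, 8.90 and 8.77 at 16 h. Every array after an overlay lay below every array at 0 h. The level averaged 9.19 ± 0.10 at 4 h, 9.10 ± 0.16 at 8 h and 8.91 ± 0.14 at 16 h, against 10.24 ± 0.12 at 0 h (SD, n = 3 each). KLF2 fell by 1.05 ± 0.10 (SE) at 4 h, by 1.13 ± 0.10 at 8 h and by 1.33 ± 0.10 at 16 h, with adjusted p of 1.1e-07, 3.03e-08 and 8.72e-10 by limma. These are falls of 2.07, 2.2 and 2.51-fold, and the differences of 8 h (-0.08 ± 0.10, adjusted p = 0.873) and 16 h (-0.28 ± 0.10, adjusted p = 0.473) from 4 h did not pass.

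TSKU encodes tsukushi, a secreted leucine-rich protein that binds growth factors of the BMP and Wnt families. Its arrays read 9.14, 9.22 and 9.28 at 0 h, 8.02, 8.10 and 7.97 at 4 h, 8.30, 8.31 and 8.22 at 8 h, and 8.31, 8.18 and 8.27 at 16 h. TSKU was lower at all 3 later times with no overlap, by 2.28-fold at 4 h (log2 change -1.19 ± 0.10, adjusted p = 4.4e-09). It fell by 0.94 at 8 h and by 0.96 at 16 h (adjusted p of 2.96e-07 and 1.56e-07). HSPA1A, an inducible HSP70 chaperone, went both ways. Its arrays read 11.25, 11.38 and 11.25 at 0 h, 10.81, 10.88 and 10.77 at 4 h, 11.88, 11.85 and 11.85 at 8 h, and 11.72, 11.81 and 11.69 at 16 h. Here the 4 h arrays were below, and the 8 h and 16 h arrays above, all 3 arrays at 0 h. The change was -0.47 ± 0.09 at 4 h (adjusted p = 0.00159), 0.57 ± 0.09 at 8 h (adjusted p = 0.000145) and 0.45 ± 0.09 at 16 h (adjusted p = 0.00361, and 0.0682 with the 12 vehicle arrays fitted alone). The difference between 8 h and 4 h, tested directly, was 1.04 ± 0.09, or 2.06-fold (adjusted p = 1.03e-09). The 16 h value was 0.92 above the 4 h value (adjusted p = 2.63e-08).

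**Figure D1:**
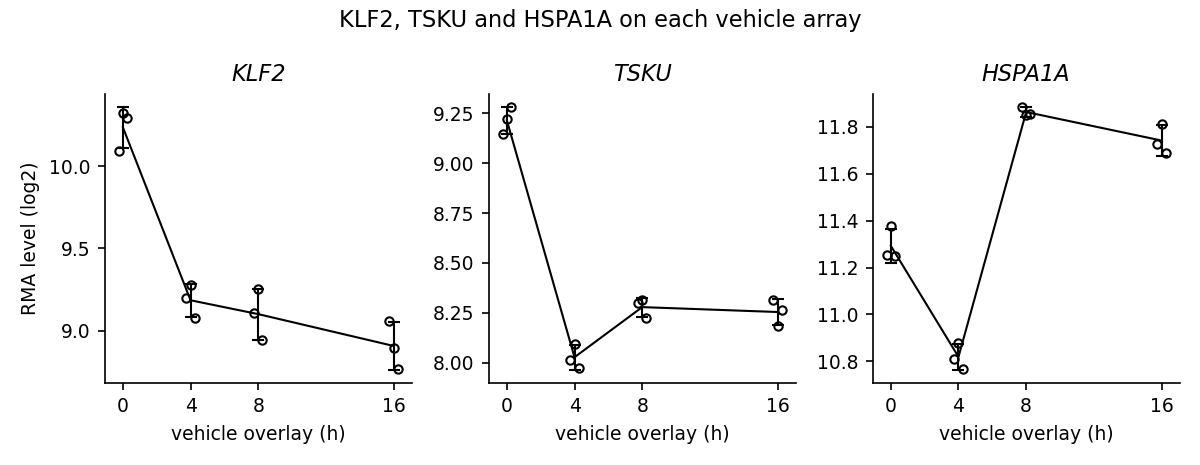
Log2 RMA level of KLF2, TSKU and HSPA1A on each of the 12 vehicle arrays (points) with the mean and SD of 3 arrays (line and bars), against hours of overlay. KLF2 and TSKU stayed below their 0 h arrays at 4, 8 and 16 h, and HSPA1A was below them at 4 h and above them at 8 and 16 h.

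Across the array, 624 of 41374 tested clusters were called at 4 h against 0 h, which is 1.51 percent of those tested, 290 of them higher (0.701 percent) and 334 lower (0.807 percent). At 8 h there were 587, or 1.42 percent, of which 272 were higher (0.657 percent) and 315 lower (0.761 percent). At 16 h there were 426, or 1.03 percent, of which 177 were higher (0.428 percent) and 249 lower (0.602 percent). A moderated F test over the 3 later times against 0 h called 802 clusters, 1.94 percent, and 1022 clusters were called at 1 or more of the times. Most of these changes were small. Calls with a change of at least 2-fold were made for 38 higher and 82 lower clusters after 4 h. The counts were 24 and 86 after 8 h, then 28 and 65 after 16 h. The median change over the 13466 named genes was 0.0025 at 4 h, 0.018 at 8 h and 0.0067 at 16 h. All 3 comparisons share the same 3 arrays at 0 h. The split at 4 h depended on single arrays: without replicate 1 of the 4 h group, an array of narrow range, 351 clusters were higher and 198 lower, and without replicate 3 it was 211 and 448. At 16 h, leaving out replicate 3, the other narrow array, gave 185 higher and 121 lower. Without both narrow arrays there were 403 higher and 220 lower clusters at 4 h, and 254 and 147 at 16 h. Fitted alone, the 12 vehicle arrays gave 73 of the 184 calls made for named genes, those of KLF2, TSKU, MIR4521 and IL20 at all 3 times among them. Losses in that fit are not named below for every gene.

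**Figure D2:**
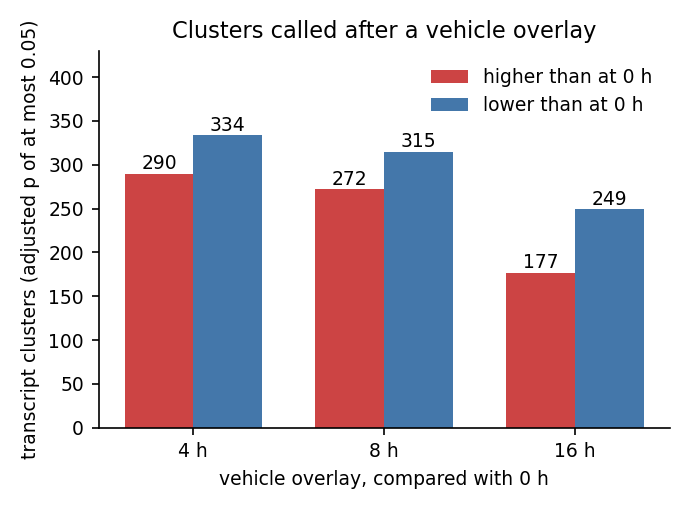
Number of transcript clusters called higher (red) and lower (blue) at 4, 8 and 16 h of vehicle overlay than at 0 h, of 41374 tested, at an adjusted p of at most 0.05. Calls numbered 624 at 4 h, 587 at 8 h and 426 at 16 h.

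The calls followed several courses. A sustained change, called the same way at 4, 8 and 16 h, was seen for 77 clusters that were higher and 113 that were lower, 22 and 30 of them with a gene name. A late change, called at 16 h against both 0 h and 4 h, was seen for 12 higher and 15 lower clusters. A transient change, called at 4 h, then called the opposite way between 4 and 16 h, and no longer called at 16 h against 0 h, was seen for 25 clusters that were higher at 4 h and 19 that were lower. Tested directly, 108 clusters differed between 8 h and 4 h (0.261 percent of those tested), with 61 higher (0.147 percent) and 47 lower (0.114 percent), and 127 differed between 16 h and 4 h (0.307 percent), with 51 higher (0.123 percent) and 76 lower (0.184 percent). Among named genes the share called was 1.59 percent at 4 h, 1.6 percent at 8 h and 0.958 percent at 16 h. Genes annotated as long noncoding RNAs were called at similar shares, 1.57, 1.31 and 1.04 percent of 1149. Of these, 14 were higher and 4 lower after 4 h, where 0.743 and 0.847 percent of named genes were. After 8 h the counts were 11 and 4, and after 16 h 10 and 2. Of 11279 protein-coding genes, 79 rose and 100 fell by 4 h (1.59 percent called). By 8 h 105 rose and 87 fell (1.7 percent). The split of clusters at 4 h depended on single arrays, as given above.

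Some chaperone genes were lower at 4 h than at 0 h and higher at 8 h or 16 h than at 4 h, HSPA1A, HSPA1B and HSPH1 among them. The 3 chaperone lists named 13, 16 and 21 genes, of which 10, 7 and 7 were measured. HSPA8, HSP90AA1, HSP90AB1 and all listed DNAJ genes were not. HSPA1A is a marker taken from earlier results of these data, and signal may be shared between its probes and those of HSPA1B. Of 24 measured members of the 3 chaperone lists, 4 were lower at 4 h (HSPA1A, HSPA1B, HSPH1 and BAG3) and 1 higher (CHORDC1), where 0.847 percent of named genes were lower and 0.743 percent higher. At 8 h against 4 h, 5 were higher (HSPA1A, HSPA1B, HSPH1, STIP1 and HSPA4L) and 0 lower, beside 0.223 percent of named genes higher and 0.134 percent lower (0.356 percent either way). At 16 h against 4 h, 4 were higher and 0 lower, beside 0.186 and 0.215 percent (0.401 percent either way). The median change at 8 h against 4 h was 0.38 in the 10 HSP70 genes, 0.16 in the 7 co-chaperones and 0.05 in the 7 genes of the other classes, beside 0.015 over all named genes. HSF1, the factor that switches these genes on, stood at -0.005 at 4 h and HSPB1, a small heat shock protein, at -0.081, and neither was called.

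HSPA1B is a near-identical neighbour of HSPA1A in the major histocompatibility region, so that signal on their probes cannot be kept wholly apart, and its arrays followed HSPA1A closely. They read 11.21, 11.44 and 11.25 at 0 h, 10.87, 10.91 and 10.76 at 4 h, 11.87, 11.85 and 11.86 at 8 h, and 11.68, 11.78 and 11.59 at 16 h. HSPA1B was 1.01 ± 0.09 higher at 8 h than at 4 h (adjusted p = 7.55e-09). Its call at 4 h against 0 h (-0.45, adjusted p = 0.00499) was lost without replicate 2 of the 0 h group or in a fit of the 12 arrays alone (adjusted p up to 0.0982), and its call at 16 h passed in 10 of 15 alternatives (adjusted p up to 0.219), being lost without replicate 1 or 3 of the 0 h group or replicate 1 or 2 of the 16 h group. The 250 bases before the RefSeq start of each gene (GRCh38.p14, plus strand, chr6:31815293-31815542 for HSPA1A and chr6:31827488-31827737 for HSPA1B) are shown because both genes turned together. The capitals mark the only match in each to the letters GAANNTTC, a pair of inverted heat shock units, searched on both strands.
HSPA1A: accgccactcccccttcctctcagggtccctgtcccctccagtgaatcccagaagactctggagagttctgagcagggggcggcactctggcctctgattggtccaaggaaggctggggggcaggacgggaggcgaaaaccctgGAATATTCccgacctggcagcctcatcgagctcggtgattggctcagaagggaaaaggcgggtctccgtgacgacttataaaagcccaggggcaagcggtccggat
HSPA1B: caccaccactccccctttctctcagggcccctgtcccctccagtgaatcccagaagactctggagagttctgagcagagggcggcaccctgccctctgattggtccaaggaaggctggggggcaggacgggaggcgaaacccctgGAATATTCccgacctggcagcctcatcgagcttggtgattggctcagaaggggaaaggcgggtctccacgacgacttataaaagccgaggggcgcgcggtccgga
Set 1 base apart, the windows share 235 of 249 bases (94.4 percent). The match lies 106 to 99 bases before the start of HSPA1A and 105 to 98 before that of HSPA1B. It was found in these 2 of the 5 chaperone genes that were higher at 8 h than at 4 h, and in 5.78 percent of 35116 promoters of that length. HSPH1, STIP1 and HSPA4L had no match. Since the 2 windows are near copies, they are not separate cases, and the shares cannot show an excess.

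HSPH1, an HSP110 chaperone that recharges HSP70 proteins with nucleotide, varied little within groups. Its arrays read 10.93, 10.90 and 10.82 at 0 h, 10.31, 10.31 and 10.33 at 4 h, 11.09, 11.11 and 11.02 at 8 h, and 11.13, 11.18 and 11.18 at 16 h. The 4 h arrays were lowest and did not overlap with any other time. HSPH1 was -0.56 ± 0.07 at 4 h against 0 h (adjusted p = 6.32e-06), and 0.75 higher at 8 h and 0.84 higher at 16 h than at 4 h (adjusted p of 1.4e-08 and 8.73e-09). At 8 h its change from 0 h was 0.19 (adjusted p = 0.264), and the call at 16 h (0.28, adjusted p = 0.0455) was lost without any 1 array of either group (adjusted p up to 0.284 among alternatives).

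BAG3, a co-chaperone that binds HSP70 proteins, was lower at each time. Its arrays read 9.75, 9.76 and 9.89 at 0 h, 9.21, 9.22 and 9.29 at 4 h, 9.36, 9.48 and 9.37 at 8 h, and 9.53, 9.44 and 9.46 at 16 h. It fell by 0.56 at 4 h (adjusted p = 5.65e-05) and by 0.40 at 8 h (adjusted p = 0.0048). The 8 h call was lost without replicate 3 of the 0 h group or in the fit of 12 arrays (adjusted p up to 0.10), and that at 16 h (-0.32) without any 1 array of either group (adjusted p up to 0.243 among alternatives). CHORDC1, a zinc-binding co-chaperone of HSP90, was higher at each time. Its arrays read 6.22, 6.65 and 6.15 at 0 h, 7.11, 7.01 and 7.33 at 4 h, 7.23, 7.54 and 7.29 at 8 h, and 7.72, 7.73 and 7.45 at 16 h. It was 0.81, 1.01 and 1.29 above 0 h at 4, 8 and 16 h (adjusted p of 0.000102, 4.15e-06 and 2.41e-08), or up to 2.45-fold. The 4 h call of CHORDC1 was lost in the limma fit of the 12 arrays alone (adjusted p = 0.0689). CHORDC1P4, annotated as a pseudogene of it, ran instead like HSPH1, at -0.60 at 4 h against 0 h and then 0.77 and 0.89 higher at 8 h and 16 h than at 4 h, and signal from gene and pseudogene may be shared between their probes. STIP1, which links HSP70 to HSP90, was 0.53 higher at 8 h and 0.48 higher at 16 h than at 4 h.

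**Figure D3:**
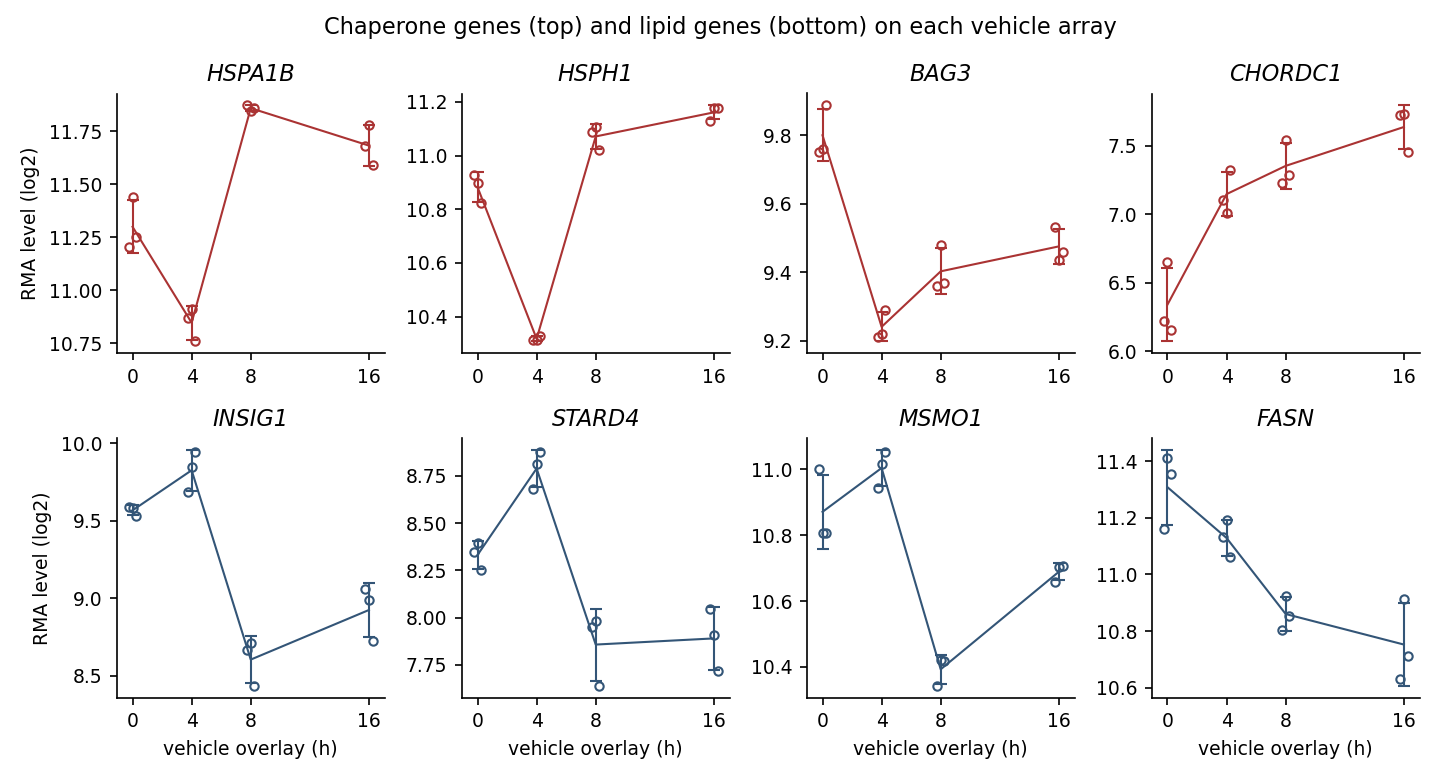
Log2 RMA level of 4 chaperone genes (top row) and 4 lipid genes (bottom row) on each of the 12 vehicle arrays (points), with the mean and SD of 3 arrays, against hours of overlay. HSPA1B and HSPH1 were lowest at 4 h and highest at 8 or 16 h, while INSIG1, STARD4 and MSMO1 were highest at 4 h and lowest at 8 h.

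Some genes of sterol and fatty acid synthesis were lower at 8 h and 16 h. Of 14 measured members of the list, 0 were called by limma at 4 h against 0 h (3 had an unadjusted p under 0.05), 5 were lower at 8 h (INSIG1, SREBF1, MSMO1, FASN and IDI1, where 0.713 percent of named genes were lower) and 4 at 16 h (INSIG1, FASN, SCD and DHCR7, where 0.55 percent were lower), with 0 higher at any time. The median change of the list was 0.10 at 4 h, -0.21 at 8 h and -0.21 at 16 h. Leaving out replicate 2 of the 0 h group or any 1 of the 8 h arrays left 2 calls at 8 h, leaving out replicate 1 or 3 of the 0 h group left 3, and the fit of the 12 arrays alone gave 1 at 8 h and 0 at 16 h.

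INSIG1, an endoplasmic reticulum protein that holds back the sterol-sensing SREBP factors and is itself one of their targets, had the largest changes of the list. Its arrays read 9.59, 9.58 and 9.53 at 0 h, 9.69, 9.85 and 9.95 at 4 h, 8.67, 8.71 and 8.43 at 8 h, and 9.06, 8.99 and 8.73 at 16 h. All 8 h and 16 h arrays lay below all earlier ones. INSIG1 fell by 0.96 ± 0.11 at 8 h (1.95-fold, adjusted p = 2.62e-06) and by 0.64 at 16 h (adjusted p = 0.00102). Between 8 h and 4 h the difference was -1.22 (2.33-fold, adjusted p = 8.21e-09). At 4 h its change was 0.26 (adjusted p = 0.345).

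MSMO1, an enzyme of cholesterol synthesis that removes methyl groups from sterols, fell by 0.48 at 8 h (adjusted p = 0.000282) and was 0.61 lower at 8 h than at 4 h. Its arrays read 11.00, 10.81 and 10.81 at 0 h, 10.94, 11.02 and 11.05 at 4 h, 10.34, 10.42 and 10.42 at 8 h, and 10.66, 10.70 and 10.71 at 16 h. STARD4, a carrier of cholesterol that was on none of the lists, was 0.93 lower at 8 h and 0.90 lower at 16 h than at 4 h (adjusted p of 1.18e-05 and 2.4e-05). Its arrays were highest at 4 h (8.68, 8.81 and 8.87) and read 8.35, 8.39 and 8.25 at 0 h. SCD, which makes monounsaturated fatty acids, and DHCR7, which completes cholesterol, fell at 16 h, by 0.36 and 0.34 against 0 h and by 0.41 and 0.39 against 4 h. SCD was called at neither comparison when the mean of its 2 clusters was used. FASN, the fatty acid synthase, fell by 0.55 at 16 h (adjusted p = 0.0059, and up to 0.0759 among alternatives, with the call lost without replicate 2 of the 0 h or replicate 1 of the 16 h group). The sterol regulatory element TCACNCCAC was found in 0 of 6 of the called genes that had a RefSeq promoter, and in 0.883 percent of all 35116. A single spelling this rare in 250 bases would seldom be met in so few genes. The search thus cannot decide whether these genes carry such an element.

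Part of the estrogen-induced genes were lower after the overlay, with most calls at 4 h. Of 21 measured members of the list, 9 were lower at 4 h, 5 at 8 h and 2 at 16 h, where 0.847, 0.713 and 0.55 percent of all named genes were lower, and 0 were higher. The median change of the list was -0.34, -0.29 and -0.24. By limma 14, 13 and 12 of the 21 had an unadjusted p under 0.05 against 0 h, so these counts fell less with time than the calls. Over all tested clusters it was 4771, 4120 and 3836. By limma 0 of the 21 passed the test between 8 h and 4 h and 0 that between 16 h and 4 h (6 and 7 had an unadjusted p under 0.05). Of all 41374 tested clusters, 3753 and 2844 had an unadjusted p under 0.05 in these tests. Of the 21 genes, 10 were among the 2693 most strongly expressed named genes, of which 44 were lower and 18 higher at 4 h. SIAH2, a ubiquitin ligase, read 10.83, 10.80 and 10.84 at 0 h, 10.26, 10.26 and 10.13 at 4 h, 10.48, 10.52 and 10.40 at 8 h, and 10.56, 10.49 and 10.35 at 16 h. It was lower at all 3 times with no overlap, by 0.61 at 4 h (adjusted p = 4e-06), 0.36 at 8 h and 0.36 at 16 h. The call at 8 h was lost without replicate 3 of the 8 h group, and that at 16 h without replicate 3 of the 16 h group.

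MYC, a transcription factor of growth, read 8.57, 8.83 and 8.87 at 4 h, against 9.40, 9.50 and 9.41 at 0 h, and fell by 0.68 (1.6-fold, adjusted p = 0.000226). At 8 h and 16 h it stood at -0.35 and -0.24, neither called. CA12, a carbonic anhydrase, fell by 0.37 at 4 h and 0.36 at 8 h, and NRIP1, a corepressor of nuclear receptors, by 0.43 and 0.41. In the limma fit of the 12 arrays alone the CA12 calls were lost (adjusted p of 0.133 and 0.149), as was the 4 h call of NRIP1 (0.118). The 8 h call of NRIP1 was lost without replicate 3 of the 8 h group (adjusted p up to 0.145 among alternatives). TFF1, the secreted trefoil protein, was at -0.51 at 4 h, CCND1, the G1 cyclin, at -0.32, EGR3 at -0.77 and ADRA2A, an adrenergic receptor, at -0.84, all called. The call of EGR3 was lost without replicate 2 of the 0 h or replicate 3 of the 4 h group (adjusted p up to 0.065), and that of ADRA2A without any 1 array of the 0 h group or replicate 1 or 3 of the 4 h group (up to 0.0884). PGR, itself an estrogen target, stood at 0.01 at 4 h (adjusted p = 0.990), CTSD, a lysosomal protease, at -0.04, and GREB1, a receptor cofactor, at -0.14, none of them called. GREB1 and IGFBP4, a binding protein of insulin-like growth factors, were lower at 8 h, by 0.28 and 0.32, and IGFBP4 lost this call without replicate 2 or 3 of the 0 h group or any 1 array of the 8 h group (adjusted p up to 0.329 among alternatives). The count at 4 h was 5 without replicate 2 of the 0 h group or replicate 1 of the 4 h group, 6 without replicate 3 of either, and 4 in the fit of the 12 arrays alone. At 8 h it was 1 without replicate 3 of the 8 h group and 3 without replicate 1 or 2 of it or replicate 2 or 3 of the 0 h group, and at 16 h it was 0 without replicate 3 of the 16 h group and 1 without any other. Without both narrow arrays the counts were 6, 6 and 0.

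**Figure D4:**
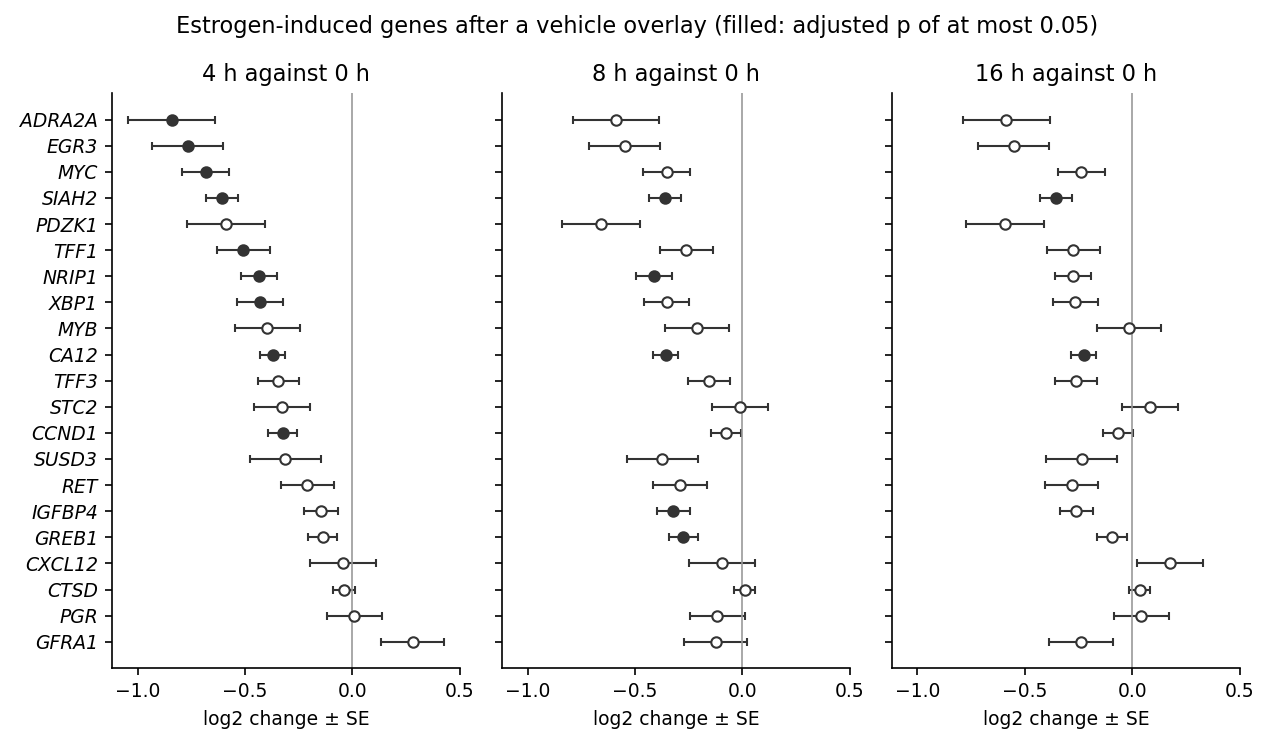
Log2 change ± SE of the 21 measured estrogen-induced genes at 4, 8 and 16 h of vehicle overlay against 0 h, with filled points for an adjusted p of at most 0.05. Filled points number 9 at 4 h, 5 at 8 h and 2 at 16 h, all on the lower side.

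Some immediate early genes were lower too. Of 22 measured, 0 were called higher, 6 were lower at 4 h, 2 at 8 h and 2 at 16 h, where 0.847, 0.713 and 0.55 percent of named genes were lower. An unadjusted p under 0.05 by limma, in either direction, was reached by 8, 8 and 10 of the 22. Over all 41374 tested clusters it was 4771, 4120 and 3836. MYC and EGR3 stand on the estrogen list as well. JUN, a subunit of the AP-1 factor, read 6.40, 6.62 and 6.58 at 4 h, against 7.66, 7.75 and 7.83 at 0 h, a change of -1.21 ± 0.27 (2.31-fold, adjusted p = 0.0136). The call was lost without replicate 2 or 3 of the 0 h or replicate 1 of the 4 h group (adjusted p up to 0.0676). DUSP4, a phosphatase that switches off ERK kinases, read 9.25, 9.30 and 9.23 at 0 h, 8.37, 8.44 and 8.37 at 4 h, 8.84, 8.85 and 8.81 at 8 h, and 8.84, 8.98 and 8.80 at 16 h. It fell by 0.87 at 4 h (adjusted p = 7.86e-07) and was at -0.43 and -0.38 at 8 and 16 h. The 8 h call was lost without replicate 2 of the 0 h or replicate 3 of the 8 h group (up to 0.0695), and the 16 h call without any 1 array of the 0 h group or replicate 1 or 3 of the 16 h group (up to 0.165 among alternatives). FOSL2, another AP-1 subunit, fell by 0.38, 0.38 and 0.41, and all 3 calls were lost in the limma fit of the 12 vehicle arrays alone (adjusted p of 0.12, 0.121 and 0.11). FOS (0.04), EGR1 (-0.12) and ATF3 (-0.01) were not called at 4 h. The count at 4 h was 4 without replicate 2 of the 0 h group.

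Of the 15 members of the KLF family, 1 was called higher and 2 lower at 4 h. The counts were 1 and 3 at 8 h, and 0 and 3 at 16 h. KLF2, a marker taken from earlier results of these data, was among the lower genes each time. Of all named genes, 0.743 percent were higher and 0.847 percent lower at 4 h, 0.884 and 0.713 at 8 h, 0.408 and 0.55 at 16 h. KLF6, a widely expressed member, read 9.82, 9.76 and 9.87 at 0 h, 8.78, 8.98 and 9.07 at 4 h, 9.12, 9.17 and 9.05 at 8 h, and 9.11, 9.05 and 8.75 at 16 h. It was lower with no overlap at each time, by 0.88, 0.71 and 0.85 (adjusted p of 0.00273, 0.0235 and 0.00461). The 8 h call was lost on leaving out any 1 array of either group (adjusted p up to 0.109) and the 16 h call without replicate 3 of the 16 h group. KLF11 stood at -0.00 at 4 h (adjusted p = 0.992) and fell by 0.42 at 8 h and 0.50 at 16 h (adjusted p of 0.000915 and 0.000103). Both KLF11 calls were lost in the limma fit of the 12 vehicle arrays alone (adjusted p of 0.124 and 0.0734). KLF5, an epithelial growth factor-responsive member, was 0.54 higher at 4 h (adjusted p = 0.00538, lost without replicate 2 of the 0 h group at 0.0573). Of the other genes known to answer fluid flow in endothelium, KLF4 stood at 0.06 and TXNIP at 0.16 at 4 h, neither called. Of the 10 measured, only KLF2 (lower) and HMOX1 (higher at 4 h and 8 h) were called. These stand beside the shares of named genes given above.

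HMOX1, the heme-degrading enzyme of the NRF2 oxidative stress response, was highest at 8 h. Its arrays read 8.73, 8.66 and 8.70 at 0 h, 9.25, 9.39 and 9.38 at 4 h, 9.83, 9.82 and 9.84 at 8 h, and 9.11, 8.91 and 8.87 at 16 h. It was 2.19-fold higher at 8 h (1.13 ± 0.17, adjusted p = 8.82e-05). The call at 4 h (0.64, adjusted p = 0.0397) was lost without any 1 array of either group (up to 0.143), and at 16 h the change was 0.26 (adjusted p = 0.718). NFE2L2, which encodes NRF2 itself, rose by 0.36 at 4 h (adjusted p = 0.00521), while OSGIN1, another gene of the list, fell by 0.56. Both of these calls were lost in the limma fit of the 12 vehicle arrays alone (adjusted p of 0.204 and 0.0639). Of the 7 measured genes of the list, 2 were higher and 1 lower at 4 h, 2 higher at 8 h and 0 called by limma at 16 h (1 had an unadjusted p under 0.05). Of all named genes, 0.743 percent were higher and 0.847 percent lower at 4 h, and 0.884 percent higher at 8 h. HPX, which encodes the heme-binding plasma protein hemopexin, was 0.80 lower at 8 h than at 4 h (adjusted p = 8.93e-06).

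Several of the largest changes lay at miRNA genes and their host transcripts. The array's clusters for such genes do not measure the mature miRNA, and their mature sequences (RefSeq, GRCh38.p14) are given only to identify the genes, with the seed, bases 2 to 8, in capitals.
hsa-miR-4521: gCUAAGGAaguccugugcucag
hsa-miR-181b-5p: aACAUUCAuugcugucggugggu
hsa-miR-181b-3p: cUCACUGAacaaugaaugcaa
hsa-miR-3671: aUCAAAUAaggacuagucugca
The 4 seeds differ. The MIR4521 cluster on chromosome 17 had the largest called rise of all named genes at each time. Its arrays read 4.40, 5.03 and 4.88 at 0 h, 6.33, 7.34 and 7.21 at 4 h, 7.41, 7.47 and 7.47 at 8 h, and 7.26, 7.62 and 6.96 at 16 h. It was higher with no overlap, by 2.19 ± 0.23, 2.68 ± 0.23 and 2.51 ± 0.23 (4.57, 6.42 and 5.7-fold, adjusted p of 3.32e-07, 1.31e-08 and 2.41e-08). These changes start near background, since the 30th percentiles of the 0 h arrays were 4.53, 4.52 and 4.53. Replicate 1 at 0 h lay below its own.

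MIR181A1HG, the host transcript on chromosome 1 from which MIR181B1 is cut, read 6.57, 6.48 and 6.47 at 0 h, 7.35, 7.68 and 8.24 at 4 h, 7.48, 7.49 and 7.27 at 8 h, and 7.33, 7.25 and 7.31 at 16 h. It rose by 1.25, 0.91 and 0.79 (adjusted p of 2.86e-06, 0.000406 and 0.00279). The cluster named for MIR181B1 rose by 1.24 at 4 h and 0.86 at 8 h and stood at 0.61 at 16 h (adjusted p = 0.104). Its call at 8 h was lost without replicate 2 of the 0 h or the 8 h group (adjusted p up to 0.18 among alternatives). The MIR3671 cluster, also on chromosome 1, fell by 1.95, 1.65 and 1.23, with arrays at 4.77, 5.56 and 6.05 at 4 h, against 7.20, 7.39 and 7.65 at 0 h. That of MIR3143, on chromosome 6, fell by 0.87, 1.26 and 1.09. Over all 615 miRNA genes measured, 6 were higher and 8 lower after 4 h, which is 2.28 percent beside 1.59 percent of all named genes. The counts were 3 and 5 after 8 h, then 3 and 4 after 16 h.

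Among protein-coding genes, the largest called rise at 4 h was in SMAD6, an inhibitor of BMP signaling. Its arrays read 6.25, 6.06 and 5.81 at 0 h, 7.41, 7.45 and 7.54 at 4 h, 6.82, 6.91 and 6.88 at 8 h, and 6.94, 6.61 and 6.63 at 16 h. It was 2.69-fold higher at 4 h (1.43 ± 0.15, adjusted p = 3.32e-07), then 0.83 and 0.69 higher at 8 and 16 h. The 16 h call was lost without replicate 3 of the 0 h or replicate 1 of the 16 h group (adjusted p up to 0.13 among alternatives). DLX2, a homeobox factor, rose by 1.17 at 4 h (adjusted p = 1.96e-05) and SLFN5, a schlafen family member, by 1.04 (adjusted p = 8.5e-05). DDIT4, an inhibitor of the growth kinase mTORC1 that stress induces, read 8.21, 8.16 and 8.11 at 4 h, against 7.26, 7.16 and 7.37 at 0 h, and rose by 0.89 (adjusted p = 4.15e-07). All 4 of these genes had their highest mean at 4 h.

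IL20, a cytokine of the IL-10 family, had the largest called fall of a protein-coding gene at 4 h. Its arrays read 8.46, 8.42 and 8.55 at 0 h, 6.45, 6.87 and 6.61 at 4 h, 7.58, 7.30 and 7.30 at 8 h, and 7.70, 7.26 and 7.26 at 16 h. It was 3.56-fold lower at 4 h (-1.83 ± 0.18, adjusted p = 1.1e-07) and 2.12 and 2.1-fold lower at 8 and 16 h. ARRDC3, an arrestin-like protein, was lower at all 3 times (-0.84, -0.80 and -0.88). KCTD6, a cullin ligase adaptor, fell by 1.10 at 4 h, and its 8 h call (-0.69) was lost without any 1 array of either group (adjusted p up to 0.234 among alternatives). MXD1, a partner of MAX that opposes MYC, was lower at 4 h, by 0.81 (adjusted p = 0.000147), with arrays at 8.72, 8.75 and 8.96 at 4 h and 9.66, 9.55 and 9.66 at 0 h, and it was 0.61 higher at 16 h than at 4 h, a call lost without replicate 1 or 2 of either group (adjusted p up to 0.121 among alternatives).

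A small set of genes fell late. C1orf116, known as an androgen-regulated gene of prostate cells, read 9.51, 9.62 and 9.62 at 0 h, 8.90, 9.39 and 9.28 at 4 h, 8.77, 8.78 and 8.79 at 8 h, and 8.53, 8.13 and 8.12 at 16 h. It fell by 0.80 at 8 h and 1.32 at 16 h against 0 h (adjusted p of 0.000145 and 2.41e-08), and was 0.93 lower at 16 h than at 4 h. GLYATL3, a glycine acyltransferase-like gene, fell by 1.71 at 16 h (3.27-fold, adjusted p = 9.14e-05). Its arrays were 7.98, 7.72 and 7.17 at 16 h, against 9.39, 9.31 and 9.30 at 0 h. NCMAP, a myelin-associated membrane protein, stood at -0.04 at 4 h and fell by 1.03 at 8 h, with an adjusted p of 0.000914. SDK2, a cell adhesion protein, stood at -0.10 at 4 h and fell by 0.76 at 16 h (adjusted p = 9.3e-06). FKBP5, a target of progesterone and glucocorticoid receptors, was the only called gene of the 17 measured on that list, at -0.59 at 16 h (adjusted p = 0.0196), a call lost without replicate 2 of the 0 h or replicate 1 of the 16 h group (adjusted p up to 0.221 among alternatives). That is 1 of 17 beside 0.55 percent of named genes lower at 16 h, and 8 of the 17 had an unadjusted p under 0.05 there.

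Of the 16 listed genes of ethanol and acetaldehyde metabolism only 4 were measured (ALDH2, CAT, ACSS1 and ACSS2). The listed alcohol dehydrogenases and CYP2E1 were not, so a change in them would not be seen. Of the 4, limma called 0 at each time, with 0, 1 and 1 at an unadjusted p under 0.05 at 4, 8 and 16 h. ALDH2, the mitochondrial aldehyde dehydrogenase, stood at 0.14, 0.27 and 0.33 (adjusted p of 0.654, 0.201 and 0.0897 at 4, 8 and 16 h). The 9 hypoxia-induced genes, 8 p53 targets and 7 NF-kappaB genes also had 0 calls by limma at 4, 8 and 16 h against 0 h. So did 5 interferon-induced genes, 13 circadian clock genes and 5 genes of amino acid synthesis (PHGDH, PSAT1, PSPH, SHMT2 and ASNS). The amino acid transporters on that list were not measured. Of all 41374 tested clusters, 4771, 4120 and 3836 had an unadjusted p under 0.05 at these times, and of the clock genes 3, 4 and 3. It was 2, 0 and 0 of the hypoxia genes, 1, 0 and 0 each of the p53 and NF-kappaB genes, 0, 1 and 0 of the interferon genes and 1, 2 and 0 of the amino acid genes. In these lists KDM3A, a histone demethylase of the hypoxia list, came to 0.35 at 4 h (adjusted p = 0.0537), and PER3, a clock gene, to 0.49 at 8 h (adjusted p = 0.0678). Of 21 genes of G1/S and DNA replication, 1 was lower at 8 h (CDC6, -0.53), and of 20 of G2/M, 1 at 4 h (CDK1, -0.29). Each of these calls was lost without any 1 array of the 0 h group (adjusted p up to 0.215 and 0.457 among alternatives), that of CDC6 also without replicate 2 or 3 of the 8 h group and that of CDK1 without replicate 1 or 2 of the 4 h group. These are beside 0.713 percent of named genes lower at 8 h and 0.847 percent at 4 h. An unadjusted p under 0.05 was reached by 3, 12 and 10 of the G1/S genes at 4, 8 and 16 h, with list medians of -0.09, -0.18 and -0.16, and by 5, 1 and 0 of the G2/M genes, with medians of -0.06, 0.02 and -0.04. GAPDH, often used as a reference gene, was at -0.16, -0.19 and -0.22, and 0 of the 5 measured reference genes were called (1, 1 and 2 had an unadjusted p under 0.05 at 4, 8 and 16 h).

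The same genes can be read in cultures that were overlaid with progesterone (P4) or the progestin medroxyprogesterone acetate (MPA) at the same times, 3 arrays each, and these levels were not tested. KLF2 averaged 9.18 under P4 and 9.18 under MPA at 4 h, against 9.19 under vehicle. At 16 h it averaged 10.04 and 9.88, against 8.91 under vehicle. The 3 overlays thus had nearly one mean at 4 h and different means at 16 h. HSPA1A averaged 10.16 and 10.34 under P4 and MPA at 4 h, against 10.82 under vehicle, and 11.86 and 11.88 at 8 h, against 11.86. Its mean was lower at 4 h than at 8 h in all 3 kinds of overlay. MIR4521 averaged 7.53 and 7.69 under P4 and MPA at 4 h, against 6.96 under vehicle, all far above its 4.77 at 0 h.

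For other genes the means lay further apart. INSIG1 averaged 9.38 and 9.37 under P4 and MPA at 8 h, against 8.61 under vehicle, and 10.15 and 9.94 at 16 h, against 8.93. C1orf116 averaged 10.47 and 10.07 under P4 and MPA at 16 h, against 8.26 under vehicle. SMAD6 averaged 5.83 and 5.62 under P4 and MPA at 4 h, against 7.47 under vehicle and 6.04 at 0 h, so the mean at 4 h lay above 0 h under vehicle and below it under both progestins. An overlay of E2 for 16 h, also 3 arrays, gave 9.03 for KLF2, 11.74 for HSPA1A and 9.78 for C1orf116, against 8.91, 11.74 and 8.26 under vehicle.

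**Figure D5:**
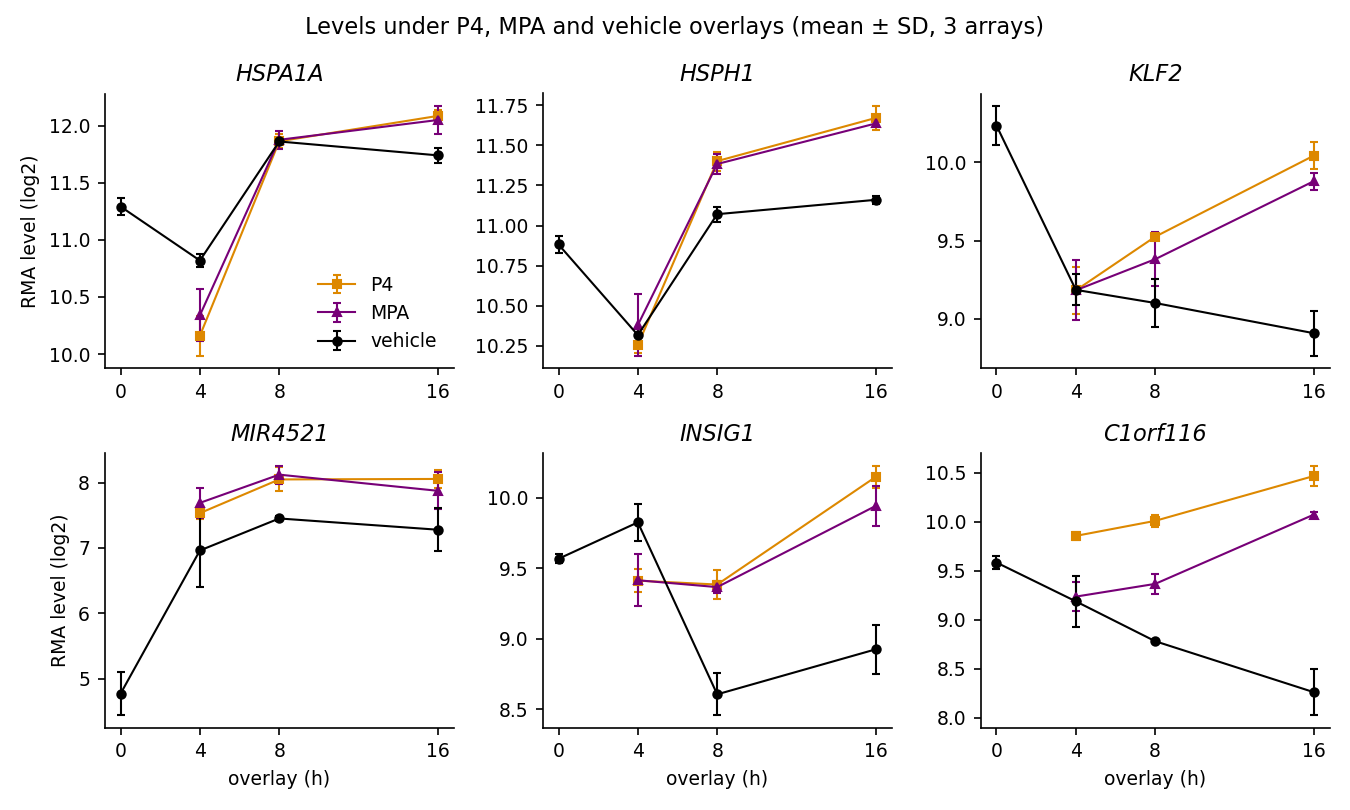
Mean log2 RMA level ± SD (3 arrays) of 6 genes under P4 (orange), MPA (purple) and vehicle (black) overlays against hours of overlay, all in E2-pretreated cells. At 4 h KLF2 and HSPH1 overlap between the 3 overlays, and at 16 h KLF2, INSIG1 and C1orf116 are higher under P4 and MPA than under vehicle.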

How the data were processed

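Total RNA of 44 ZR-75-1 cultures (RNeasy, DNase) was run on Affymetrix Gene ST arrays. The authors deposited log2 values made by RMA and named limma, with versions not given in the sources used here. The labels call the array Gene 1.0 ST, whereas the platform annotation that matched the table is of Gene 2.0 ST. Of 53617 clusters, 16098 had 1 gene symbol, updated through RefSeq GRCh38.p14, and 37519 none.

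Groups came from the labels. limma 3.58.1 (R 4.3.3) fitted the group means of all 44 arrays, with two-sided moderated tests and Benjamini-Hochberg adjustment over the 41374 clusters above the 30th percentile of their array on at least 3 arrays. The script was tested on simulated data. Named genes were KLF2, HSPA1A and TSKU, the 8 largest called changes each way at each time against 0 h, the 8 smallest F test p, the 5 largest each way for 8 h and 16 h against 4 h and in each time class, and up to 4 called members a list. TFF1, CCND1, IDI1, GREB1, PGR, CTSD, GFRA1 and a few other list members were named after their values were seen. Members and lists were chosen with earlier results of these data known. Alternatives were the filter, the fit of 12 arrays, array weights, the interquartile range as a covariate, repeated quantile normalization, a replicate block and leaving out each array. 3 arrays a group limit the precision.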

Additional observations from a re-analysis of the deposited data

Results flagged for a closer look

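Some genes did not change alike at the different times, by a test of one later time against 4 h. At 8 h against 4 h 108 clusters passed this test, and at 16 h against 4 h 127 did. Among named genes, HSPA1A (1.04 at 8 h and 0.921 at 16 h), HSPA1B (1.01 and 0.836), HSPH1 (0.754 and 0.844) and CHORDC1P4 (0.77 and 0.891) were higher than at 4 h at both later times. INSIG1 (-1.22 and -0.902), STARD4 (-0.931 and -0.899) and NCMAP (-0.996 and -0.852) were lower at both. NCMAP lost its call at 16 h without replicate 2 or 3 of the 16 h or of the 4 h group (adjusted p up to 0.221 among alternatives).

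TMTC2, an endoplasmic reticulum protein, was 0.741 higher, and HPX (-0.797) and KLRA1P (-0.65) lower, at 8 h than at 4 h. HPX was lower at 16 h than at 4 h as well (-0.522), a call lost without replicate 2 of the 16 h group or replicate 2 or 3 of the 4 h group (adjusted p up to 0.41 among alternatives). The call of TMTC2 was lost without replicate 1 or 2 of the 8 h group or replicate 1 of the 4 h group (adjusted p up to 0.39 among alternatives), and that of KLRA1P without any 1 array of the 8 h group or replicate 2 or 3 of the 4 h group (up to 0.544). At 16 h, GLYATL3 (-1.54) and C1orf116 (-0.927) were lower than at 4 h. ALOX15P1, a pseudogene, was 0.775 higher at 16 h than at 4 h, and this call was lost without any 1 array of the 4 h group or replicate 2 or 3 of the 16 h group (adjusted p up to 0.672 among alternatives).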

How the results depend on the processing

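Counts of calls depended on how the spread was estimated, while none of the 184 called results of named genes that were recomputed changed direction under an alternative. With the 12 vehicle arrays alone the calls were 153 at 4 h, 121 at 8 h, 71 at 16 h, 124 by the F test, 34 for 8 h against 4 h and 31 for 16 h against 4 h, and sustained, late and transient clusters numbered 36, 2 and 22. That fit has fewer arrays to estimate the spread. With array weights they were 2186, 1767, 1150, 3222, 1166 and 967, and 481, 153 and 322. With the interquartile range as a covariate they were 1356, 1316 (457 higher and 859 lower, beside 272 and 315), 947, 1766, 283 and 304, and 408, 64 and 119. The stricter filter gave 176 for 8 h against 4 h. Repeated quantile normalization gave 224 and 204 for the later times against 4 h, 42 late and 72 transient clusters. Without the 2 narrow arrays, a choice made after seeing the data, 48 clusters differed between 16 h and 4 h, 24 were transient and 18 late. The cause of these differences was not tested.

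Leaving out 1 array gave 338 to 659 calls at 4 h, 306 to 488 at 8 h, 239 to 371 at 16 h, 430 to 853 by the F test, 54 to 131 for 8 h against 4 h and 63 to 107 for 16 h against 4 h, with 115 to 178 sustained, 18 to 31 late and 28 to 41 transient clusters. The lowest were without replicate 2 of the 0 h group (4 h, 16 h, F test and sustained), replicate 2 of the 8 h group (8 h), replicate 1 of the 8 h group (8 h against 4 h) and replicate 2 of the 16 h group (16 h against 4 h, late and transient).

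Of 184 called results of named genes, 73 kept their call with the 12 arrays, 183 with array weights, 184 with the covariate, 184 with the stricter filter, 170 without a filter, 179 with quantile normalization, 179 with the replicate block and 150 without the narrow arrays. Replicate numbers did not pair the samples, since deviations from group means correlated at a median of -0.021 between same-numbered arrays and 2 of 12 arrays correlated best with their own number. The replicate block gave 621, 605, 438, 789, 109 and 132 calls and 200, 33 and 39 clusters in the time classes. The number of arrays limits all of these counts.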
